A study of Mus musculus with 48 samples.

Results

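The 32 genes described here encode the MHC molecules, the proteins that supply and load their peptides, and the transactivators NLRC5 and CIITA. They also encode the ligands PD-L1, PD-L2, B7-H3, CD80 and CD86, through which a presenting cell restrains or stimulates a T cell, and CD40, a receptor for a T cell ligand. The genes were listed by name, with no measured value in the rule, though with earlier results of these data known. All 32 were found among the 54752 genes of the matrix. The libraries came from Prox1-eGFP mice on a C57BL/6 background, aged 8 to 16 months per the labels (the study's methods give ages in weeks, so the unit is uncertain), in which eGFP is produced from the Prox1 gene and so marks lymphatic endothelial cells (LECs). The 4 populations were heart LECs, diaphragm LECs, cardiac blood endothelial cells (heart BECs) and cardiomyocytes, with 12 libraries each from 13 mice in all. In each population 4 libraries came from the ctrl group, whose pumps held saline and albumin, 5 from mice infused with angiotensin II and albumin (angII), and 3 from mice infused with angiotensin II and VEGFCc156s, a growth factor mutant that activates VEGFR3 (angII+VEGFC), all collected 5 to 6 weeks after the pump was implanted. Endothelial cells were sorted as CD31-positive and CD45.2-negative cells and sequenced in 2 batches of 18 libraries. Cardiomyocytes were pelleted at low speed, were not sorted, and were sequenced in a batch of their own.

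Class I molecules pair a heavy chain with beta-2-microglobulin and present peptides from inside the cell to CD8 T cells. The peptides are cut by the immunoproteasome, moved by the TAP transporter and loaded with the help of tapasin, and NLRC5 drives this group of genes. Class II molecules are made under CIITA, mainly in macrophages, dendritic cells and B cells, carry the invariant chain CD74 and present peptides from outside the cell to CD4 T cells. Endothelial cells are known to carry class I constantly and class II when stimulated, and lymphatic endothelium is known as a source of PD-L1.

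Levels are in TPM, the length-corrected share that a gene takes of its library, and differences are on the log2(TPM + 1) scale. In the 36 endothelial libraries the 3 pan-endothelial markers were present at 37.7 TPM or more, Prox1, the master regulator of lymphatic identity, stood at 97.6 to 315 TPM in LECs and at 1.06 to 5.72 TPM in BECs, and Myh6, a cardiomyocyte gene, stood at 1004 to 3914 TPM in cardiomyocytes. Each population therefore carried the markers of its label. Pecam1, the gene of CD31, was also present in cardiomyocyte libraries at 105 to 173 TPM. Ptprc, the gene of CD45, was above 0 in every library, and the sum of 18 leukocyte markers was 21.8 to 396 TPM for heart LECs, 49.9 to 437 TPM for diaphragm LECs, 37.4 to 129 TPM for heart BECs and 871 to 3000 TPM in cardiomyocytes. TPM carry no sequencing depth. In its place, between 12924 and 25896 genes per library reached 1 TPM. This number differed by treatment in LECs. In diaphragm LECs it was 20062 to 23691 in angII, 12924 to 18116 in ctrl and 14963 to 18373 in angII+VEGFC libraries. In heart LECs it was 19957 to 25896, 16131 to 24086 and 16756 to 18884 in the same order. A gene was tested where it reached 1 TPM in at least 3 libraries of a comparison, which kept 30 of the 32 members within heart LECs, 31 within diaphragm LECs, 29 within heart BECs and 30 within cardiomyocytes. H2-Oa, a subunit of a class II peptide editor, was at 0 in 11 heart LEC libraries and was tested only in diaphragm LECs and across endothelial cells. The 32 genes took 1.42 ± 0.221% of the TPM of heart BECs, 0.870 ± 0.198% of heart LECs, 0.539 ± 0.0801% of diaphragm LECs and 0.448 ± 0.0818% of cardiomyocytes (SD, n = 12 each). In bulk RNA, fewer cells that express a gene and less of its RNA per cell cannot be told apart.

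The 150 bases before the transcription start are shown for the heavy chain genes H2-D1, H2-Q6 and H2-Q7, the light chain gene B2m, and the class II genes H2-Aa and H2-Eb1. These were picked by hand among members with a match to the letters below. H2-K1, which followed the class I order across populations described below, held none of these letters. H2-T23, which did not follow it, held the inverted CCAAT box and the ISRE core. A link between the letters and the levels was not tested. The letters CTGATTGG on either strand, the inverted CCAAT box, were held by 9 of the 25 member genes with a RefSeq promoter (36%) and by 4.43% of 27025 genes within 250 bases before the start. The box between Tap1 and Psmb9 was counted for both genes. Others of the 9 are related class I heavy chain genes, so the 9 genes are not separate observations. The ISRE core GAAANNGAA was held by 5 of the 25 (20.0%, 8.18% of all), the GAS letters TTCNNNGAA by 2 (8.00%, 8.13% of all) and the kappa B letters GGANTTTCC by 2 (8.00%, 1.25% of all), each searched on both strands. Matches of different motifs were counted also where they overlap. Capitals mark the matches. The windows are from RefSeq on GRCm38.p6, 5′ to 3′ along the gene, at chr17:35262944-35263093 (H2-D1, + strand), chr17:35424700-35424849 (H2-Q6, + strand), chr17:35439005-35439154 (H2-Q7, + strand), chr2:122147537-122147686 (B2m, + strand), chr17:34287824-34287973 (H2-Aa, − strand) and chr17:34305717-34305866 (H2-Eb1, + strand).
H2-D1: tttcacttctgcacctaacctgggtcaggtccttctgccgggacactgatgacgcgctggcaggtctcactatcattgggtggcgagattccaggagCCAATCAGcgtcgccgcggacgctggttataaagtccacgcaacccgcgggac
H2-Q6: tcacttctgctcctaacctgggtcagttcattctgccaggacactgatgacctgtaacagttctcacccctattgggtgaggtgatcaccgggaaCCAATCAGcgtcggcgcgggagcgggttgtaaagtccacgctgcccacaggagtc
H2-Q7: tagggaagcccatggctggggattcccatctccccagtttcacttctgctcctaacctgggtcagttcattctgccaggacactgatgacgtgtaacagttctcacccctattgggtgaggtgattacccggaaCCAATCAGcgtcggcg
B2m: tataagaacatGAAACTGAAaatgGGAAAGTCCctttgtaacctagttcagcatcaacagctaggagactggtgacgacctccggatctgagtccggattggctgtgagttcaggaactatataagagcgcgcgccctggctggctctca
H2-Aa: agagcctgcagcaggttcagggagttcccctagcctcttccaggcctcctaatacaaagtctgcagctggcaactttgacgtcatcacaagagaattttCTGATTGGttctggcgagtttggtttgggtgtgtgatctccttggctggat
H2-Eb1: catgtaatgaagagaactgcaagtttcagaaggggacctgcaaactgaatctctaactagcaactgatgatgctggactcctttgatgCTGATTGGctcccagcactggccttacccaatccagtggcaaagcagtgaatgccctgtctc

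The box ended 46 and 48 bases before the start in H2-D1 and H2-Q6, and 9 bases before it in H2-Q7. In the class II genes H2-Aa and H2-Eb1 it ended 44 and 55 bases before the start, on the opposite strand from the class I heavy chains. Of the 32 genes, 20 lie on chromosome 17, most of them in the MHC. There, Tap1 and the immunoproteasome gene Psmb9 are transcribed away from each other from starts 226 bases apart. The box found 222 to 215 bases before the Tap1 start is the same box as that 11 to 4 bases before the Psmb9 start.

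Among endothelial cells, most class I genes were highest in heart BECs, lower in heart LECs and lowest in the LECs of the diaphragm. H2-K1, a classical heavy chain, had a lowest, median and highest level over 12 libraries of 1635, 2092 and 3126 TPM in heart BECs, of 920, 1266 and 2286 TPM in heart LECs, and of 507, 619 and 887 TPM in diaphragm LECs. Every diaphragm LEC library was below every heart LEC library, while heart LECs and heart BECs overlapped. H2-K1 was lower in heart LECs than in heart BECs by 0.66 ± 0.09 (SE, adjusted p = 7.2e-07, limma), with all 12 mice below, and lower in diaphragm LECs than in heart LECs by 1.06 ± 0.09 (adjusted p = 3.5e-10), with all 11 mice that gave both libraries below. H2-D1, the more abundant classical heavy chain at 1.80 ± 0.17 (SD, n = 12) times the TPM of H2-K1 in heart BECs and 2.57 ± 0.44 times in diaphragm LECs, followed the same order with differences of -0.59 and -0.62.

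Over the 32 genes, 18 were lower and 0 were higher in heart LECs than in heart BECs at an adjusted p under 0.05. Of all 32754 genes tested, 8.64% were lower and 8.94% higher. The median difference of the 32 genes was -0.82, against 0.15 for all genes. In diaphragm LECs against heart LECs 11 were lower and 1 was higher (2.67% and 1.88% of all genes), with medians of -0.38 and -0.10. In diaphragm LECs against heart BECs 19 were lower and 0 higher (9.01% and 7.54% of all genes), with medians of -1.02 and 0.03. The libraries of both populations did not overlap for 4, 3 and 14 of the 32 genes in these comparisons, against 3.18%, 0.29% and 5.31% of all genes tested.

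**Figure D1:**
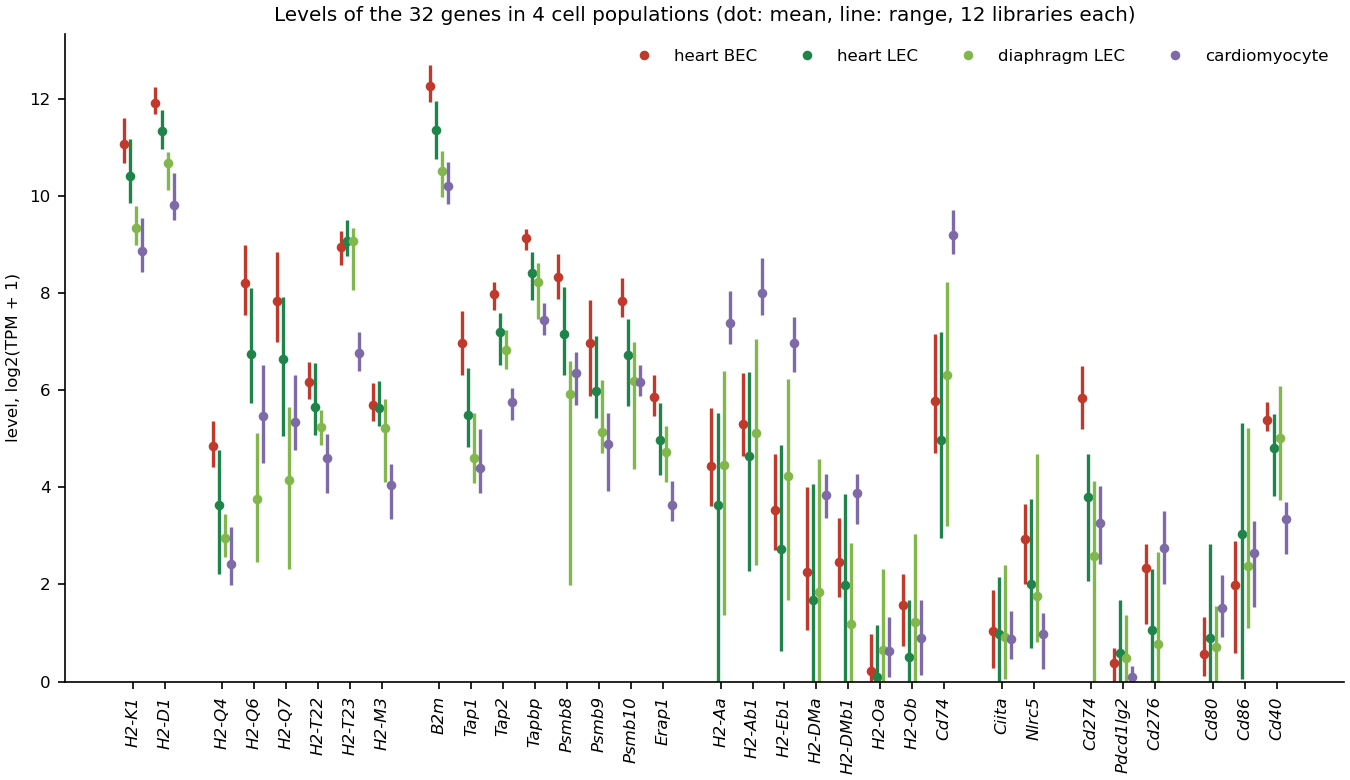
Level of each of the 32 genes as log2(TPM + 1), with the mean as a dot and the range over 12 libraries as a line, for the 4 populations. The class I genes and Cd274 step down from heart BECs to heart LECs to diaphragm LECs, with H2-T23 and H2-M3 apart from this order, and the class II genes H2-Aa, H2-Ab1, H2-Eb1 and Cd74 are highest in cardiomyocytes.

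The non-classical heavy chains H2-Q6 and H2-Q7, which belong to the Qa-2 group, had the steepest gradient. H2-Q6 had a lowest, median and highest level of 185, 280 and 503 TPM for heart BECs, 52.3, 86.2 and 274 TPM for heart LECs and 4.47, 12.2 and 33.8 TPM in diaphragm LECs. The diaphragm LECs were thus below all heart LECs, by 3.02 ± 0.23 (adjusted p = 3.1e-11, limma), and heart LECs were below heart BECs by 1.43 ± 0.23 (adjusted p = 1.3e-05). Relative to H2-K1 in the same library, H2-Q7 stood at 0.107 ± 0.019 for heart BECs, 0.0789 ± 0.0294 for heart LECs and 0.0288 ± 0.0135 for diaphragm LECs (SD, n = 12 each). H2-T23, the gene of Qa-1, a ligand of inhibitory receptors on NK cells, did not follow this order. It had medians of 495 TPM in heart BECs, 535 TPM in heart LECs and 575 TPM in diaphragm LECs, the ranges overlapped, and the differences of 0.15 ± 0.10 and 0.03 ± 0.10 did not pass (adjusted p = 0.32 and 0.91). H2-M3, which presents formylated peptides, differed by -0.04 between heart LECs and heart BECs (adjusted p = 0.88). Several class I heavy chain genes share part of their sequence, so that their levels depend in part on how reads were split. Of the 75-base windows of their transcripts, 17.9% for H2-Q6, 17.0% for H2-Q7, 18.5% for H2-T22 and 3.10% for H2-K1 are also found in another gene.

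Genes of the class I light chain and of peptide supply and loading had the same order. B2m, the light chain, was lower in heart LECs than in heart BECs by 0.93 ± 0.09 (adjusted p = 9.2e-10) and lower again in diaphragm LECs by 0.81 ± 0.09 (adjusted p = 1.4e-07). Tap1, a subunit of the peptide transporter, had a lowest, median and highest level of 78.1, 118 and 196 TPM for heart BECs, 27.4, 43.0 and 87.1 TPM for heart LECs and 16.0, 22.9 and 45.1 TPM in diaphragm LECs. Neighbouring populations overlapped in Tap1, and the library of each mouse was lower in the later population of this order in all 12 and all 11 mice. The differences were -1.46 ± 0.16 (adjusted p = 5.3e-09) and -0.92 ± 0.16 (adjusted p = 1.7e-04). All 8 genes of this group were lower in heart LECs than in heart BECs, and 5 of the 8 in diaphragm LECs than in heart LECs, with Tapbp, Psmb10 and Erap1 not past the threshold. Psmb8, an immunoproteasome subunit, lost its call in that comparison under quantile normalization (adjusted p = 0.071) and stood at 2.97 TPM in the diaphragm LEC angII library of mouse 4, against 52.7 TPM or more in the other 11.

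Nlrc5, the transactivator of class I, had medians of 6.33 TPM in heart BECs, 2.94 TPM in heart LECs and 1.71 TPM in diaphragm LECs. It was lower in diaphragm LECs than in heart BECs by 1.25 ± 0.31 (adjusted p = 0.0029), in all 11 mice. Between heart LECs and heart BECs its difference of -0.84 ± 0.31 did not pass (adjusted p = 0.057, and 0.011 with the mouse as a block). Ciita, the transactivator of class II, was low in all 4 populations, with medians of 0.769 to 0.943 TPM, and did not pass in any comparison of populations.

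The markers of blood endothelium moved in the same order. Flt1, the gene of VEGFR1, stood at 353 to 637 TPM for heart BECs, 71.5 to 191 TPM for heart LECs and 3.48 to 35.8 TPM in diaphragm LECs, and all 3 blood endothelial markers were lower in heart LECs than in heart BECs (median difference -1.48) and lower in diaphragm LECs than in heart LECs (median -2.20). Lyve1, a marker of lymphatic endothelium, ran the other way, from 27.4 to 81.1 TPM through 1019 to 1697 TPM to 3150 to 5161 TPM. The fibroblast gene Dcn was present in all endothelial populations at 99.1 to 3024 TPM. The part of blood endothelial or other cells in the class I gradient was not tested. Of the leukocyte markers tested, 0 of 16 were lower and 1 was higher in each of the 2 comparisons. Of all genes, 8.64% were lower and 8.94% higher in the first, and 2.67% and 1.88% in the second. With 16 markers, such counts cannot be told from those shares.

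Cd274, the gene of PD-L1, the ligand of the inhibitory receptor PD-1, was highest in heart BECs. Its level in heart BECs was 61.3, 50.9, 77.0 and 52.3 TPM in the ctrl group, 48.1, 56.6, 89.2, 58.8 and 49.3 TPM in the angII group and 49.9, 35.7 and 61.7 TPM in the angII+VEGFC group. In heart LECs it was 24.3, 6.67, 10.7 and 16.3 TPM, 14.2, 17.5, 24.8, 14.8 and 14.5 TPM, and 3.18, 13.5 and 12.2 TPM. All heart LEC libraries were below all heart BEC libraries. The difference was -2.08 ± 0.31 (adjusted p = 2.3e-06, limma), and diaphragm LECs were lower than heart LECs by 1.13 ± 0.31 (adjusted p = 0.024), in 8 of 11 mice. That second call was lost with a pseudocount of 0.1 (adjusted p = 0.084) and with control libraries alone (adjusted p = 0.33). The other ligand of PD-1, Pdcd1lg2 (PD-L2), was at or near 0 in every population, with medians of 0.0679 to 0.488 TPM. Cd276, the gene of B7-H3, was lower in heart LECs than in heart BECs by 1.27 ± 0.31 (adjusted p = 0.0025).

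Cd40, the receptor for the T cell ligand CD154, had the highest level of the costimulatory genes, with a median of 39.6 TPM for heart BECs, 29.7 TPM for heart LECs and 30.0 TPM for diaphragm LECs, and the lower level of heart LECs than of heart BECs (-0.61 ± 0.19, adjusted p = 0.022) was lost with control libraries alone (adjusted p = 0.30). Cd86, a ligand of CD28 and CTLA-4, had a difference of 1.01 ± 0.37 in heart LECs against heart BECs (adjusted p = 0.058, and 0.022 with the mouse as a block). Cd80, which binds the same receptors, was at most 6.10 TPM in any library and did not pass among endothelial cells.

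Of the 8 class II genes 1 was called in each comparison of endothelial populations. Cd74, the invariant chain, had a median of 45.6 TPM for heart BECs, 28.6 TPM for heart LECs and 104 TPM for diaphragm LECs, where its range was 8.18 to 299.9 TPM. H2-Eb1, a class II beta chain, was higher in diaphragm LECs than in heart LECs by 1.5 ± 0.45 (adjusted p = 0.047), and the call was lost in 26 of 36 fits that each left out 1 library. H2-Ob, a subunit of the peptide editor H2-O, was lower in heart LECs than in heart BECs by 1.16 ± 0.25 (adjusted p = 6.8e-04). H2-DMb1, a subunit of the peptide exchanger H2-DM, was lower in diaphragm LECs than in heart BECs by 1.32 ± 0.29 (adjusted p = 8.2e-04).

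Cardiomyocyte libraries had lower class I levels than heart BECs and higher levels of 6 of the 7 class II genes tested. Cd74 was at 446 to 553 TPM in the ctrl group, 504 to 836 TPM in the angII group and 446 to 776 TPM in the angII+VEGFC group, above all heart BEC libraries, whose highest was 141 TPM. The difference from heart BECs was 3.47 ± 0.19 (adjusted p = 9.4e-14, limma). H2-Aa, H2-Ab1, H2-Eb1, H2-DMa and H2-DMb1 were higher as well, by 1.42 to 3.5. All 16 class I heavy chain, light chain and supply genes were lower, by 1.57 (H2-T22) to 2.74 (H2-Q6), as were Nlrc5, Cd274, Cd40 and the class II gene H2-Ob (-0.68 ± 0.18, adjusted p = 0.0014). In all, 20 of 30 tested members were lower and 9 higher, against 64.1% lower and 10.8% higher among all 23213 genes, with medians of -1.81 and -0.61. Under quantile normalization 41.6% of the genes called were higher and not 14.4%, and 19 members were lower and 9 higher. The macrophage genes C1qa, C1qb, C1qc and Lyz2 moved with class II, from 0.471 to 56.5 TPM in heart BECs to 88.4 to 1145 TPM in cardiomyocyte libraries, 12 of 17 tested leukocyte markers were higher, and 0 of the 18 were at 0 in any cardiomyocyte library. Their part in the class II level was not tested. The population, the isolation and the sequencing batch cannot be told apart in this comparison.

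**Figure D2:**
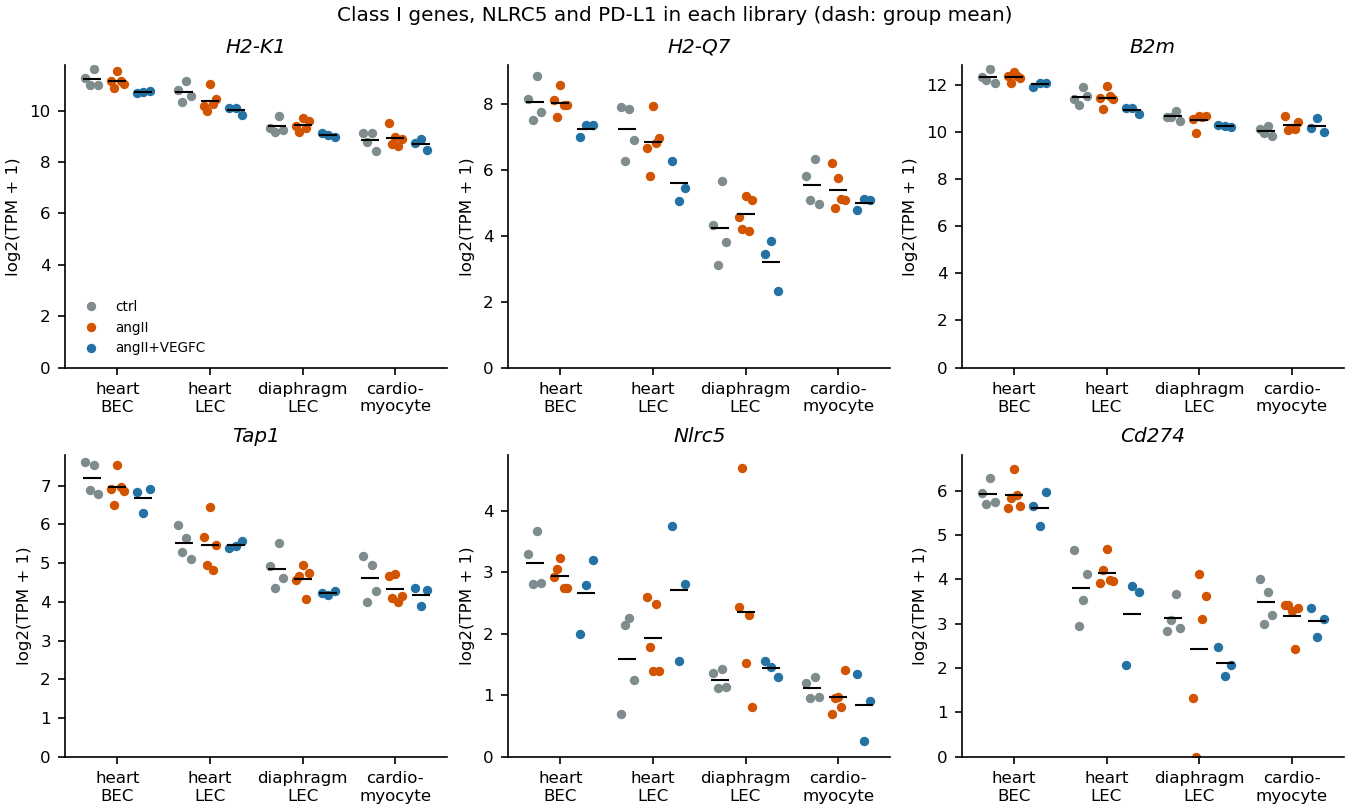
Levels of H2-K1, H2-Q7, B2m, Tap1, Nlrc5 and Cd274 as log2(TPM + 1) in each library (points), with the mean of each treatment group (dash), in 4 populations. The angII+VEGFC libraries lie at the low end for H2-K1 and H2-Q7 in the 3 endothelial populations, while Nlrc5 is scattered.

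Of 43 other genes of the pathway, 40 were tested, and 16 were lower and 5 higher in heart LECs than in heart BECs (8.64% and 8.94% of all genes). Of the interferon gamma signalling genes 4 of 14 were lower and 0 higher, among them Irf1, a transcription factor of class I genes (-1.61, adjusted p = 6.8e-09), and Ifngr1, a receptor subunit (-0.89, adjusted p = 1.0e-11). Among other co-signalling ligands, Tnfsf9, the gene of 4-1BB ligand, was lower (-3.53, adjusted p = 2.1e-09), as was Icosl, the gene of ICOS ligand (-2.32, adjusted p = 1.9e-11), and Nectin2, a ligand of TIGIT and DNAM-1, was higher (2.72, adjusted p = 1.1e-19). Diaphragm LECs differed from heart LECs in 9 of the 40, with 5 lower and 4 higher (2.67% and 1.88% of all genes). Nectin2 rose again in that order (0.62, adjusted p = 2.6e-04) and Tnfsf9 was lower again (-1.72, adjusted p = 0.0024).

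The 3 contrasts of treatment in each population called 0 of the 32 genes at an adjusted p under 0.05. Over all genes tested, limma called 0.0261% in heart LECs (angII vs ctrl), 0.0892% in cardiomyocytes (angII vs ctrl), 0.663% in cardiomyocytes (angII+VEGFC vs ctrl) and 0% in the other 9. At an unadjusted p under 0.05 the members were counted against the same share of all genes. In heart LECs 1 of 30 was higher and 4 lower in angII vs ctrl (8.94% and 1.93% of all genes), 0 and 4 in angII+VEGFC vs angII (1.09% and 9.75%), and 1 and 11 in angII+VEGFC vs ctrl (1.73% and 3.22%). In heart BECs the members numbered 1 higher and 3 lower of 29 (2.57% and 2.83%), 0 and 2 (1.47% and 1.12%), and 0 and 9 (2.49% and 3.02%). In diaphragm LECs they numbered 3 and 1 of 31 (13.9% and 1.45%), 0 and 4 (1.12% and 7.66%), and 0 and 0 (0.927% and 0.390%). In cardiomyocytes they numbered 9 and 0 of 30 (8.00% and 1.85%), 0 and 1 (0.848% and 1.56%), and 3 and 2 (8.15% and 4.70%). The counts depended on single libraries. Leaving out 1 library at a time, the number of members in either direction ran from 1 to 5, 2 to 8 and 8 to 14 in heart LECs, 0 to 5, 0 to 5 and 4 to 15 in heart BECs, 1 to 6, 2 to 7 and 0 to 4 in diaphragm LECs and 4 to 12, 0 to 2 and 3 to 7 in cardiomyocytes. In heart BECs, angII+VEGFC vs ctrl, it was 4 without the angII+VEGFC library of mouse 6 and 15 without that of mouse 8, and in cardiomyocytes, angII vs ctrl, it was 4 without the ctrl library of mouse 11 or the angII library of mouse 3. The contrasts of a population share groups, so these counts are not independent of each other. The median of all genes shifted in some contrasts, to 0.23, -0.37 and -0.13 in heart LECs and to 0.28, -0.21 and 0.05 in diaphragm LECs, and quantile normalization brought it to between -0.02 and 0.03. The medians of the members were -0.12, -0.40 and -0.50 in heart LECs, 0.05, -0.27 and -0.18 in diaphragm LECs, -0.13, -0.20 and -0.27 in heart BECs (all genes -0.06, 0.03 and -0.01) and 0.15, -0.12 and 0.16 in cardiomyocytes (all genes 0.12, -0.03 and 0.11).

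**Figure D3:**
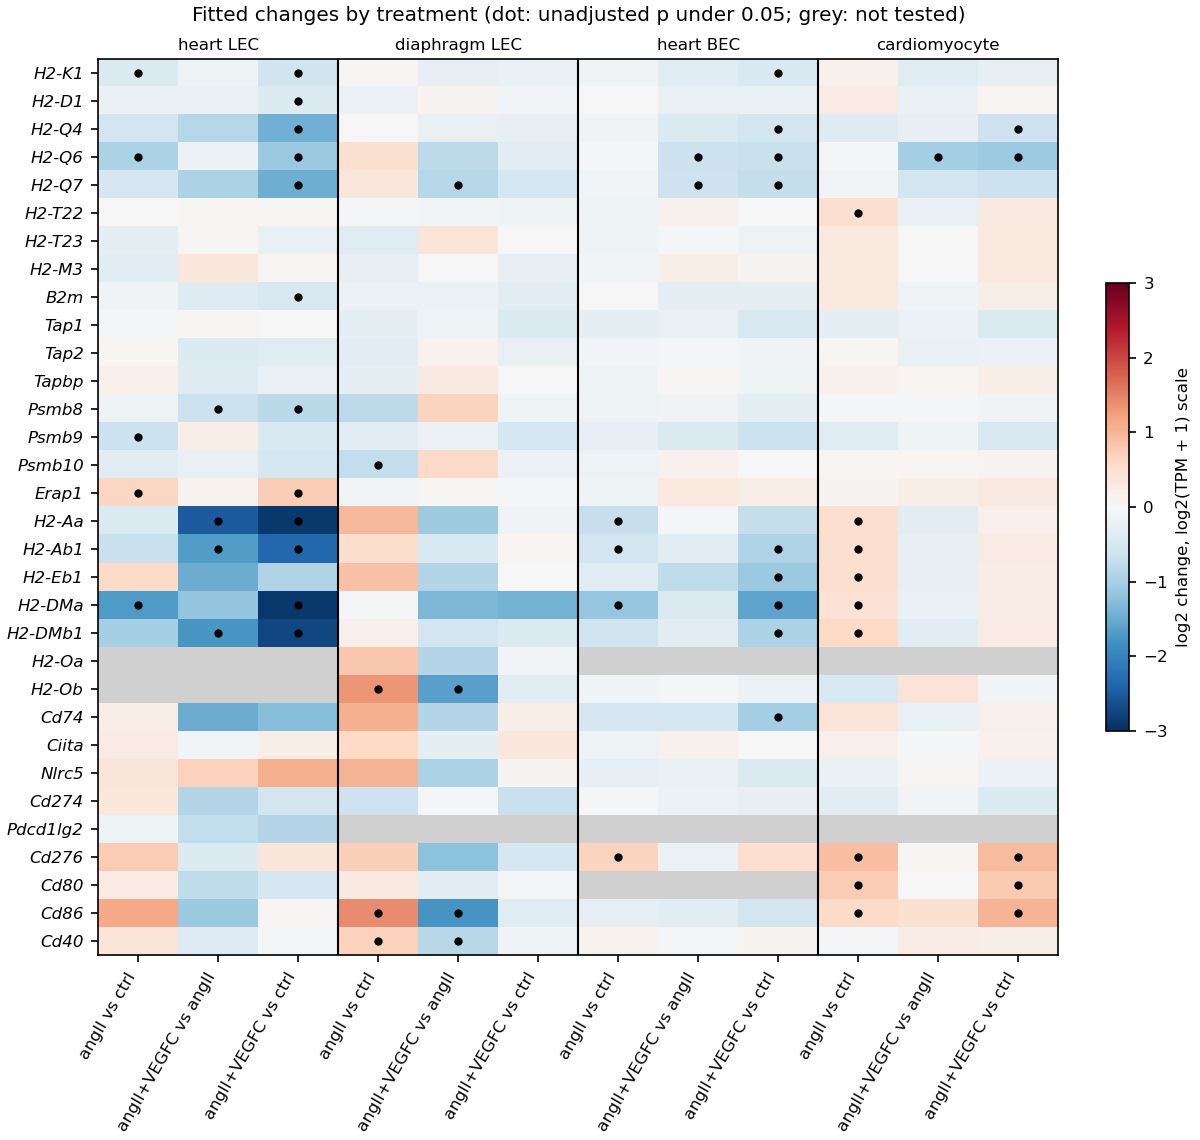
Fitted log2 changes of the 32 genes (lines) in the 12 contrasts of treatment (columns), from blue for lower to red for higher, with a dot where the unadjusted p was under 0.05 and grey where a gene was not tested. Dots for lower class I and class II genes gather in angII+VEGFC vs ctrl of heart LECs and heart BECs, and 0 of the changes passed the adjusted threshold.

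In heart LECs the class II chain genes H2-Aa and H2-Ab1 had the smallest p among the members in both contrasts with angII+VEGFC. H2-Aa, a class II alpha chain, was at 27.5, 15.8, 45.0 and 12.2 TPM in the ctrl group, 35.7, 24.4, 21.3, 14.5 and 4.59 TPM in the angII group and 0, 6.77 and 2.28 TPM in the angII+VEGFC group. The 3 angII+VEGFC libraries were below all ctrl libraries and overlapped 1 angII library. For this and the other separations of treatment groups given below, the share of all genes that separate in the same way was not counted. The fitted difference was -2.90 ± 0.47 against ctrl (adjusted p = 0.37, limma) and -2.48 ± 0.49 against angII (adjusted p = 0.27). Within the batches, the difference from ctrl was -2.22 and -3.04, with 1 and 2 angII+VEGFC libraries.

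H2-Ab1, the partner beta chain, was at 32, 25.2, 82.2 and 58.5 TPM in ctrl, 77.9, 54.1, 40.3, 13.2 and 11.3 TPM in angII and 3.83, 9.72 and 7.75 TPM in angII+VEGFC libraries. The angII+VEGFC libraries did not overlap either group. The angII libraries differed by batch, at 40.3 to 77.9 TPM in batch 1 and at 13.2 and 11.3 TPM in batch 2. The angII+VEGFC libraries were at 9.72 TPM in batch 1 and at 3.83 and 7.75 TPM in batch 2. The differences were -2.35 ± 0.49 against ctrl (adjusted p = 0.91) and -1.68 ± 0.50 against angII (adjusted p = 0.41, limma). H2-DMa, a subunit of H2-DM, was at 5.19, 6.20, 6.5 and 15.6 TPM in ctrl, 7.86, 0.930, 2.59, 0 and 0.767 TPM in angII and 0, 0 and 0.897 TPM in angII+VEGFC heart LECs. It was below all ctrl libraries in 4 of 5 angII and 3 of 3 angII+VEGFC libraries and was the member with the smallest p in angII vs ctrl (-1.69 ± 0.65, adjusted p = 0.37). Cd74 was listed at 10.3, 6.75 and 27.6 TPM in the angII+VEGFC group and overlapped ctrl. The summed leukocyte markers of the angII+VEGFC libraries spanned 21.8 to 396 TPM, around the 37.5 to 156 TPM of ctrl and the 37.7 to 303 TPM of angII, with 2 to 9 of the 18 at 0, while Ptprc was at 4.44 to 4.51 TPM, below 8 of the other 9 libraries (4.84 to 12.7 TPM). Their part in the class II values was not tested.

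**Figure D4:**
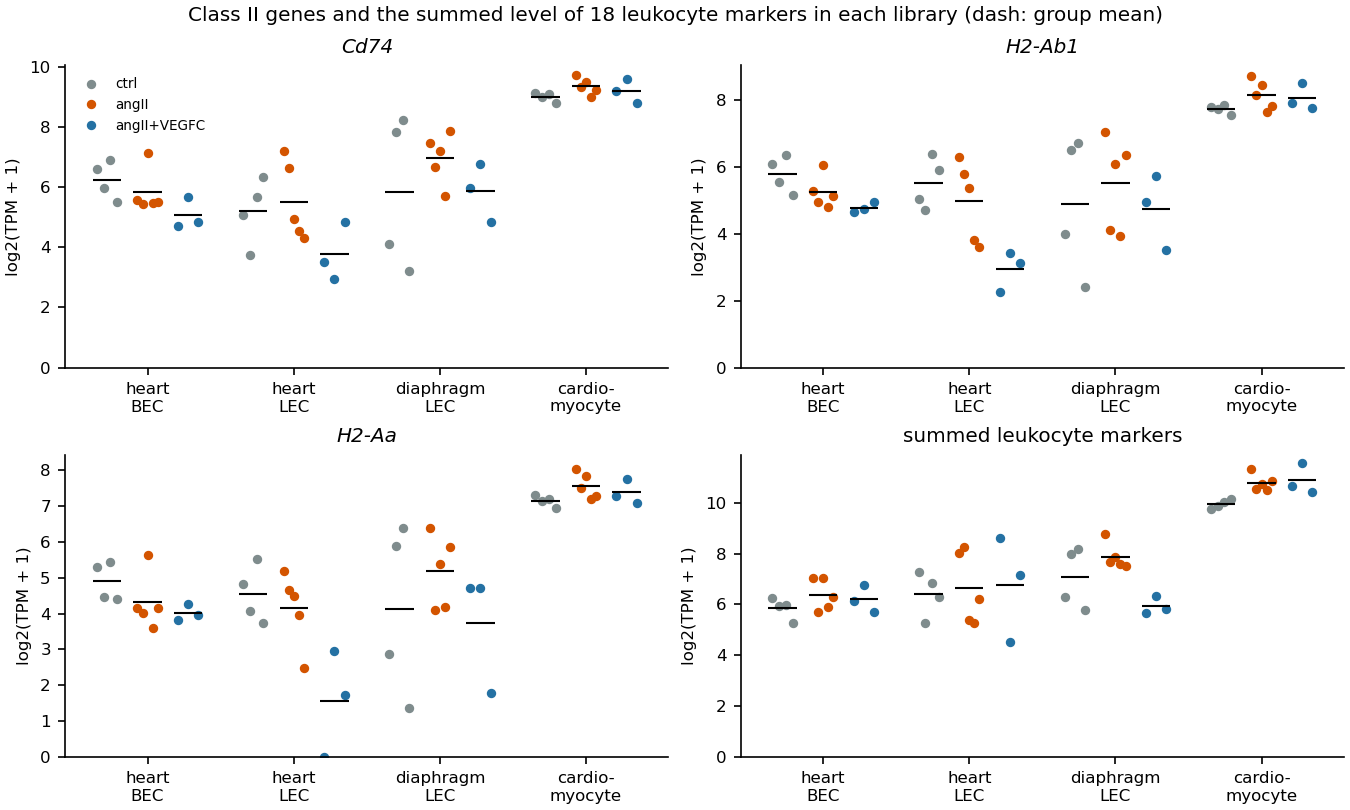
Levels of Cd74, H2-Ab1 and H2-Aa and the sum of 18 leukocyte markers, as log2(TPM + 1), in each library (points) with the group mean (dash). In heart LECs the angII+VEGFC libraries are lowest for H2-Ab1. Their leukocyte sums span the range of the other groups, and their Ptprc, not drawn, is low as given in the text. In cardiomyocytes both class II and leukocyte markers are high. The part of leukocytes in the class II levels was not tested.

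In heart BECs 0 class II genes were called. H2-Ab1 was at 66.7, 45.8, 80.6 and 34.4 TPM in ctrl, 37.7, 29.9, 66.2, 26.9 and 34.3 TPM in angII and 23.9, 25.9 and 29.8 TPM in angII+VEGFC libraries, with no overlap of the last with ctrl (-0.92 ± 0.28, adjusted p = 0.80, limma). H2-DMa had -1.57 ± 0.47 in the same contrast (adjusted p = 0.80) and -1.15 ± 0.41 in angII vs ctrl (adjusted p = 0.84). In angII vs ctrl Cd276 had 0.67 ± 0.27 (adjusted p = 0.90).

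The classical heavy chain H2-K1 in heart BECs was at 2472, 2065, 3126 and 2046 TPM in ctrl, 2297, 1901, 2957, 2295 and 2120 TPM in angII and 1635, 1686 and 1743 TPM in angII+VEGFC libraries. All 3 angII+VEGFC libraries were below all 9 others, a separation named after the values were seen and without a count over all genes. It takes no account of age or batch. Per the labels the angII+VEGFC mice were 15, 8 and 8 months old, the ctrl mice 9, 8, 16 and 16, and the angII mice 8, 16, 14, 14 and 16. Mouse 6 of angII+VEGFC was in batch 1 and mice 2 and 8 in batch 2. The ctrl libraries were at 2472 and 3126 TPM in batch 1 and at 2065 and 2046 TPM in batch 2. The difference from ctrl was -0.45 ± 0.17 (adjusted p = 0.87, limma). H2-Q7 in heart BECs was at 126, 161 and 161 TPM in the angII+VEGFC group against 179 to 456 TPM in ctrl and 191 to 378 TPM in angII, again without overlap, with -0.63 ± 0.26 against angII (adjusted p = 1.0), and H2-Q6 had -0.65 ± 0.25 (adjusted p = 1.0). In heart LECs H2-K1 was at 1099, 1103 and 920 TPM with angII+VEGFC, below the 1307 to 2286 TPM of ctrl and overlapping angII (1020 to 2076 TPM), and H2-Q6 differed by -0.95 ± 0.37 in angII vs ctrl (adjusted p = 0.37). In diaphragm LECs B2m was at 1264, 1227 and 1204 TPM with angII+VEGFC, below the 1433 to 1928 TPM of ctrl, and the largest member differences in that contrast did not pass (adjusted p = 1.0 each). The 3 angII+VEGFC mice gave the libraries of all populations, so low values in several populations are not separate observations.

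The costimulatory gene Cd86 in diaphragm LECs was at 2.37, 2.00, 2.47 and 3.87 TPM in ctrl, 4.39, 36.5, 4.20, 11.0 and 6.21 TPM in angII and 1.27, 4.04 and 1.16 TPM in angII+VEGFC libraries. The angII libraries were above all others, as they also were in the number of genes that reached 1 TPM. The difference was 1.41 ± 0.58 in angII vs ctrl (adjusted p = 0.31, limma) and 0.94 ± 0.45 without the library of mouse 4 (adjusted p = 0.38), which also held 45.6 TPM of Ptprc against 1.70 to 9.17 TPM in the other 11. Cd40 was at 31.2, 46.5, 39.1, 67.3 and 28.4 TPM in angII diaphragm LECs and 27.4, 43.0, 12.2 and 28.7 TPM in ctrl (0.70 ± 0.27, adjusted p = 0.30), and H2-Ob, at 0.604, 0.833, 1.28 and 0.281 TPM in ctrl and 1.21, 7.17, 3.53, 1.91 and 5.46 TPM in angII libraries, had 1.32 ± 0.50 (adjusted p = 0.30) and, in angII+VEGFC vs angII, -1.63 ± 0.57 (adjusted p = 0.57). The summed leukocyte markers were 182 to 437 TPM in the angII, 53.5 to 288 TPM in the ctrl and 49.9 to 78.5 TPM in the angII+VEGFC libraries of this population, with 0 to 4, 1 to 4 and 1 to 5 of the 18 at 0.

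In cardiomyocytes Cd276 was at 3.67, 3.66, 3.01 and 3.30 TPM in ctrl, 8.40, 7.6, 7.10, 5.59 and 7.38 TPM in angII and 8.08, 10.5 and 5.10 TPM in angII+VEGFC libraries. Every ctrl library was below every other library. The differences were 0.91 ± 0.21 (adjusted p = 0.11) and 0.94 ± 0.24 (adjusted p = 0.096, limma), and the adjusted p was 0.0063 and 0.0061 once the count of detected genes (1 TPM) entered the fit as a covariate. Cd80 was at 0.877 to 1.18 TPM in ctrl and 1.73 to 3.28 TPM in angII libraries (0.75 ± 0.24, adjusted p = 0.27). Cd86 was at 4.04, 3.66, 1.89 and 4.70 TPM in ctrl and at 7.89, 8.85 and 8.75 TPM in angII+VEGFC libraries (1.03 ± 0.26, adjusted p = 0.094). The leukocyte markers moved with these genes, with sums of 871 to 1124 TPM in ctrl, 1447 to 2545 TPM in angII and 1378 to 3000 TPM in angII+VEGFC libraries and 0 of the 18 at 0, and their part was not tested. H2-Q6 was at 28.4, 21.6 and 28.2 TPM with angII+VEGFC, below 32.7 to 90.5 TPM in angII (-1.03 ± 0.32, adjusted p = 1.0).

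The test of whether the treatment contrasts differed between endothelial populations called 0 of the 32 genes in all 6 interactions, with 0.00611% of all genes called for angII vs ctrl in diaphragm LECs against heart LECs and 0% in the other 5. The smallest adjusted p of a member was 0.39. Of the other 43 genes of the pathway, 0 were called in any contrast of treatment, and at an unadjusted p under 0.05 between 0 and 8 were higher and between 0 and 3 lower over the 12 contrasts. The 8 were of 40 tested in cardiomyocytes, angII vs ctrl, where 8.00% of all genes were higher.

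Class I levels of a mouse were then compared between its populations, a relation that was first noticed in the values. The p-values below come from the same values and are no independent support for it. H2-K1 in diaphragm LECs and heart BECs of the same mouse correlated with Pearson r = 0.89 and Spearman rho = 0.89 over 11 mice (permutation test, two-sided, adjusted p = 0.016 and 0.048 over 144 relations). H2-Q7 gave r = 0.85 and rho = 0.90 in the same pair (permutation test, adjusted p = 0.016 and 0.048). Without the 2 mice farthest from the median r was 0.72 and 0.82, with the mean of each treatment group removed it was 0.81 and 0.75, and within the batches it was 0.97 and 0.64 for H2-K1 and 0.96 and 0.70 for H2-Q7. Of the 144 relations, these 2 passed the threshold by both measures. In heart LECs and heart BECs 6 of 28 genes had r of 0.7 or more (21.4%), against 2.55% of all 20325 genes, and the median r was 0.66 over the 16 class I genes, 0.50 over 6 class II genes, -0.13 over the other 6 members and 0.15 over all genes. In cardiomyocytes and heart BECs the medians were 0.33 over class I, 0.06 over class II, 0.26 over the other 6 members and 0.09 over all genes, and H2-Q7 had r = 0.82. The libraries of a mouse also share its treatment and age and, among endothelial cells, in all 12 mice with more than 1 such library, the batch. The permutations exchanged all mice freely and did not hold these fixed.

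**Figure D5:**
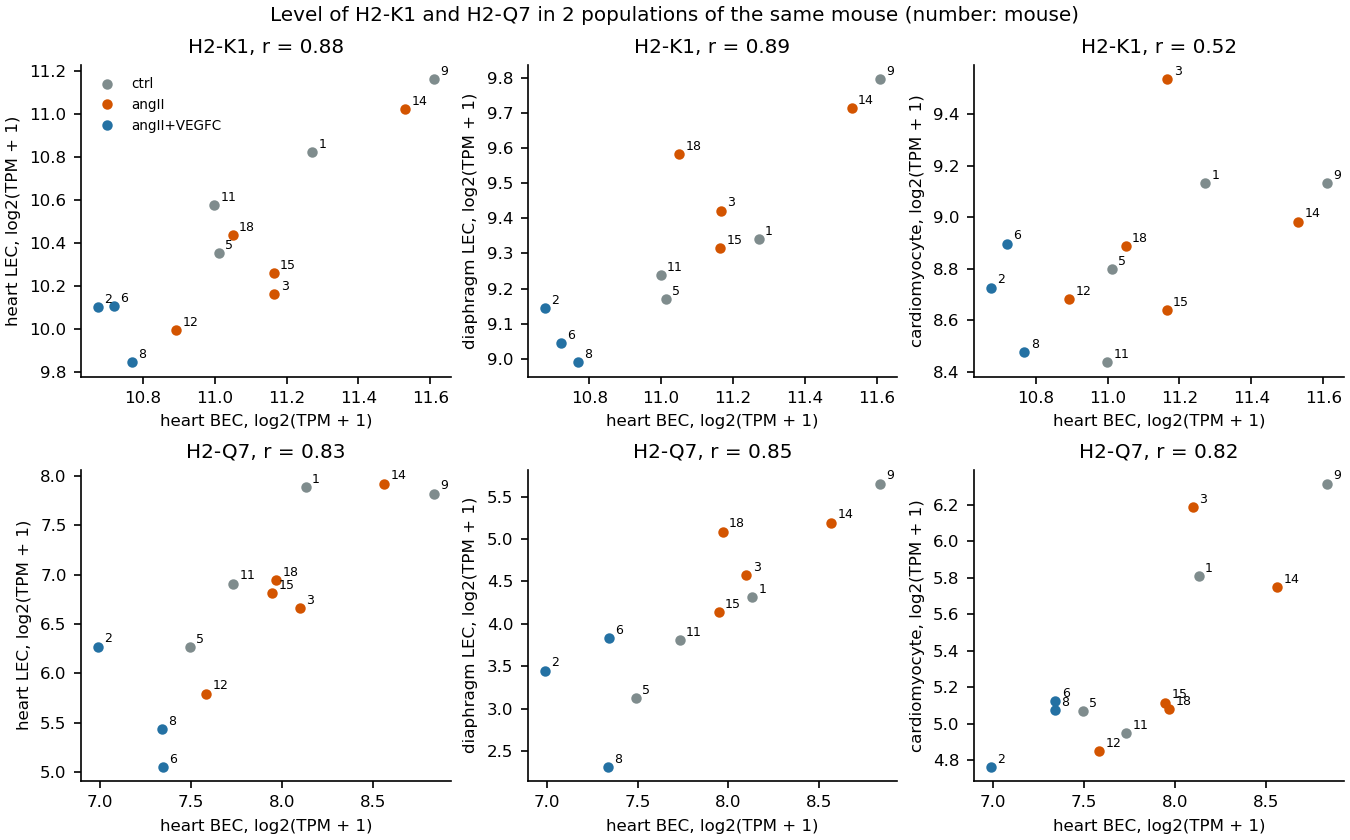
Levels of H2-K1 (upper) and H2-Q7 (lower) as log2(TPM + 1) in heart LECs, diaphragm LECs and cardiomyocytes against heart BECs of the same mouse, with the mouse number beside each point and the treatment by colour. Mice 9 and 14 are high and the 3 angII+VEGFC mice are low in the endothelial pairs, and r is 0.88, 0.89 and 0.52 for H2-K1 and 0.83, 0.85 and 0.82 for H2-Q7.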

How the data were processed

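RNA from 48 libraries of sorted endothelial cells and pelleted cardiomyocytes was amplified with a low-input Smart-Seq kit and sequenced from Nextera XT libraries. The authors deposited 1 matrix of TPM by gene; the submitters' processing notes name STAR 2.5.3a and Salmon 0.12.0. TPM keep no read depth, so no counting error is given. Columns were matched to samples by name, and the mouse number in the labels links libraries of the same animal. Replicates within a group are separate mice. Differences were fitted on log2(TPM + 1) with limma 3.58.1 in R 4.3.3, over all genes that reached 1 TPM in 3 libraries or more, with Benjamini-Hochberg adjusted p under 0.05 as the threshold. Fits within a population held its 3 treatment groups, and fits across endothelial populations held all 36 libraries as 9 groups, averaged with equal weight over treatments, with age and sequencing batch as covariates (age alone where cardiomyocytes entered). The main fits across populations held no term for the mouse, so libraries of the same animal entered as separate observations. The mouse as a block was an alternative. The fits were tested on simulated data. Tables and figures used Python 3.11.15, pandas 2.3.3 and matplotlib 3.10.9.

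Libraries of the same mouse are paired by the animal. Over all genes tested, their deviations from the group means correlated at a mean of 0.0652 over 34 pairs (-0.137 to 0.250), against -0.00502 over 398 pairs of different mice. The members were more alike within a mouse. Between heart LECs and heart BECs their median r over 12 mice was 0.59, against 0.15 for all genes, with group means not removed. Correlations between populations of a mouse used permutation tests with 100000 draws.

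The members and the lists of markers and pathway genes were chosen with earlier results of these data known. By rule, the text names members past the threshold in a treatment contrast or, where fewer than 2 passed, the 2 with the smallest p, the most abundant member of each of 7 role groups over the endothelial libraries, and in each comparison of populations the called member of each role group with the largest difference. Others, such as H2-K1 in treatment contrasts, were named after their values were seen. The motif letters were also chosen after the files were read. Alternatives were quantile normalization, a pseudocount of 0.1, testing all genes without the filter, no covariates, the number of detected genes as a covariate, 1 factor from the residuals, only the groups compared, control libraries only, the mouse as a replicate block and each library left out.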

Additional observations from a re-analysis of the deposited data

Results flagged for a closer look

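Over 22 named members and the groups of 4 or 5 libraries, 176 groups were examined for 1 library whose gap to the nearest other exceeded Dixon's 95% critical value. There were 21 such gaps, several of them in the same library. Chance alone gives about 1 in 20 groups, or 8.8, if the groups are independent. Genes measured in the same library are not, so 21 against 8.8 is no measure of an excess.

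In heart BECs the angII library of mouse 14 stood above the other 4 for 5 genes. It held 48.5 TPM of H2-Aa (others 11.2 to 17.0 TPM), 66.2 TPM of H2-Ab1 (26.9 to 37.7 TPM), 23.2 TPM of H2-Eb1 (8.05 to 12.0 TPM), 141 TPM of Cd74 (42.1 to 46.5 TPM) and 89.2 TPM of Cd274 (48.1 to 58.8 TPM). The heart LEC library of the same mouse stood apart with 257 TPM of H2-Q6 (52.3 to 103 TPM) and 103 TPM of Psmb9 (43.5 to 56.1 TPM).

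In the diaphragm LEC angII group the library of mouse 4, which also held the highest Ptprc, was lowest for B2m at 1007 TPM (1504 to 1646 TPM) and highest for Nlrc5 at 24.8 TPM (0.759 to 4.38 TPM) and Cd86 at 36.5 TPM (4.20 to 11.0 TPM). In ctrl libraries, mouse 9 was highest for H2-T23 in heart BECs at 621 TPM (483 to 502 TPM), for Psmb8 in cardiomyocytes at 109 TPM (74.9 to 77.3 TPM) and for Psmb9 in diaphragm LECs at 73.2 TPM (32.6 to 36.6 TPM). Mouse 1 was highest for Cd80 in heart LECs at 6.10 TPM (0 to 0.887 TPM) and heart BECs at 1.51 TPM (0.126 to 0.199 TPM), and for Cd86 in heart LECs at 39.0 TPM (0.0380 to 4.94 TPM).

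Mouse 11 was highest for H2-DMa in ctrl heart LECs at 15.6 TPM (5.19 to 6.5 TPM). Among angII libraries, mouse 3 was highest for H2-D1 in cardiomyocytes at 1411 TPM (766 to 939 TPM) and for Psmb9 in diaphragm LECs at 53.1 TPM (27.3 to 32.9 TPM), and mouse 15 was lowest for H2-DMb1 in heart LECs at 0.486 TPM (4.50 to 5.95 TPM) and for Cd274 in cardiomyocytes at 4.37 TPM (8.75 to 9.80 TPM).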

How the results depend on the processing

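The number of members called in the comparisons of populations stayed within 1.5 times under every alternative run, at 17 to 20, 8 to 13, 18 to 20 and 29 members for heart LEC vs heart BEC, diaphragm LEC vs heart LEC, diaphragm LEC vs heart BEC and cardiomyocyte vs heart BEC when 1 library at a time was left out. With control libraries alone it was 13, 8, 16 and 23. In cardiomyocytes, angII vs ctrl called 0 members as reported, 2 with the number of detected genes as a covariate, 1 with only the 2 groups compared, 1 with 1 factor from the residuals, and 0 to 2 when 1 library was left out, with 2 without the angII+VEGFC library of mouse 8. In angII+VEGFC vs ctrl the counts were 1 with the covariate, 2 with the factor, and 0 to 1 when 1 library was left out, with 1 without mouse 8. The cause was not tested. All other treatment contrasts and interactions called 0 members under every alternative run.

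With the mouse as a replicate block, which pairs libraries of the same animal, 20, 13, 19 and 29 members were called. The block added Nlrc5 (adjusted p = 0.011, limma) and Cd86 (0.022) in heart LEC vs heart BEC, H2-T22 (0.039) in diaphragm LEC vs heart LEC and H2-T23 (0.0086) in diaphragm LEC vs heart BEC, where H2-M3 lost its call (0.056), and it changed no other call of a member between populations. Quantile normalization moved the share of called genes that were higher from 50.9% to 40.6% in heart LEC vs heart BEC (0 members higher, 20 lower) and from 41.4% to 54.9% in diaphragm LEC vs heart LEC (1 higher, 8 lower). For named genes, 310 values under an alternative setting kept their side of the threshold, 13 lost a call and 6 gained one. Without depth, no limit of detection can be given for genes at 0 TPM, and groups of 3 to 5 mice limit the precision of every treatment contrast.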

Other observations

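Other relations between populations of the same mouse did not pass by both measures. H2-K1 had r = 0.82 between diaphragm LECs and heart LECs over 11 mice, and 0.55 without the 2 mice farthest from the median. Of the members in both populations, 5 of 29 had r of 0.7 or more in that pair (17.2%, 3.00% of all genes), 7 of 29 in diaphragm LECs and heart BECs (24.1%, 2.12%), 4 of 29 in cardiomyocytes and heart BECs (13.8%, 2.91%) and 1 of 29 in cardiomyocytes and heart LECs (3.45%, 1.13%).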
